A study of Mus musculus with 4 samples.

Results

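The genes described here are the mouse collagen chains, taken as every gene whose symbol reads Col, a number, the letter a and a number (Col1a1, Col4a2 and so on). The rule found 44 genes with 51 transcript rows, of 26947 genes with 35656 transcript rows. They comprise 11 fibrillar collagens, 6 basement membrane collagens of type IV and 27 others. Levels are given in FPKM (the fragments on each kilobase of a transcript, per 1000000 fragments mapped), with the transcript rows of a symbol added up.

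The RNA came from mouse embryonic stem cells of the line CJ9 (strain 129S4/SvJae), sequenced in 4 libraries after withdrawal of LIF, the cytokine that keeps such cells from differentiating. By their titles, 2 wild-type libraries were taken at day 6 and 2 wild-type libraries at day 4 of withdrawal. All 4 carry Cas9 only, with no edit of the locus that the series targets, so day is the only difference the titles give. The culture text in the labels counts other days without LIF for 3 of the 4 libraries: 4 for day 6 replicate 1, 2 for day 4 replicate 1 and 6 for day 4 replicate 2. Whether replicates of the same day were grown separately is not stated, so errors and p-values measure only how far these libraries differ, which may be technical.

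Collagens are extracellular proteins in which chains wind around each other into a helix. Fibrillar collagens assemble into the fibrils of connective tissue, with types I and III in mesenchyme, skin and vessels and types II and XI in cartilage. Type IV chains form the sheet-like network of basement membranes and are among the first collagens made by the early embryo, where the endoderm next to the blastocoel deposits them. The other classes coat fibrils, form beaded filaments, span the plasma membrane or, as with type XVIII, carry glycosaminoglycan chains in basement membranes. In the endoplasmic reticulum the chains are hydroxylated and folded with dedicated enzymes and chaperones. Outside the cell they are trimmed, cross-linked and bound by receptors.

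The libraries differ in ways that touch every collagen below. The low FPKM values fall on whole multiples of 1 fragment, which gives about 9930000 and 8700000 fragments at day 6, against 5110000 and 5060000 at day 4. The day 4 libraries were also less alike, since the difference of replicate 2 minus replicate 1 had an SD over genes of 0.36 on the log2 scale at day 6, against 1.69 at day 4. Among genes whose transcripts hold 58 to 62% G and C, the median of that difference was -0.10 at day 6 and 1.29 at day 4. The collagens are rich in G and C, with a median of 58.2% over those tested, against 51.2% over all genes tested, and for 16 of the 21 collagens tested, replicate 2 was the higher of the day 4 libraries. The part of this difference between libraries in the results below was not tested beyond the correction for G and C and the values without 1 library. The stem cell and epiblast markers Pou5f1, Nanog, Sox2, Esrrb and Fgf5 summed to 83.1 and 60.3 FPKM at day 6, against 543 and 535 FPKM at day 4, so markers of the labelled cell type were present at both days. Pou5f1 makes up most of that sum, with 54.9 and 41.99 FPKM at day 6, against 368 and 376 FPKM at day 4. Of the 5 markers 4 were lower at day 6, with both day 6 values below both day 4 values, against 11.5% of all genes tested. Esrrb was higher without overlap, as were 41.6% of all genes tested, and overlapped after correction for G and C. It had 5.11 and 4.35 FPKM at day 6, against 3.0 and 1.13 FPKM at day 4. In bulk RNA, fewer cells of a type and less RNA per cell cannot be told apart.

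The collagens as a class made up more of the RNA at day 6. Their FPKM summed to 635 and 658 at day 6, against 149 and 385 at day 4. Type IV chains summed to 360 and 261 FPKM at day 6, against 41.0 and 81.9 FPKM at day 4. Fibrillar chains summed to 161 and 283 FPKM at day 6, against 43.1 and 112 FPKM at day 4. The remaining classes summed to 114 FPKM in both day 6 libraries, inside the day 4 range of 65.03 to 191 FPKM. The day 6 sums of the type IV and fibrillar chains lay above both day 4 sums, and that of the others did not.

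**Figure D1:**
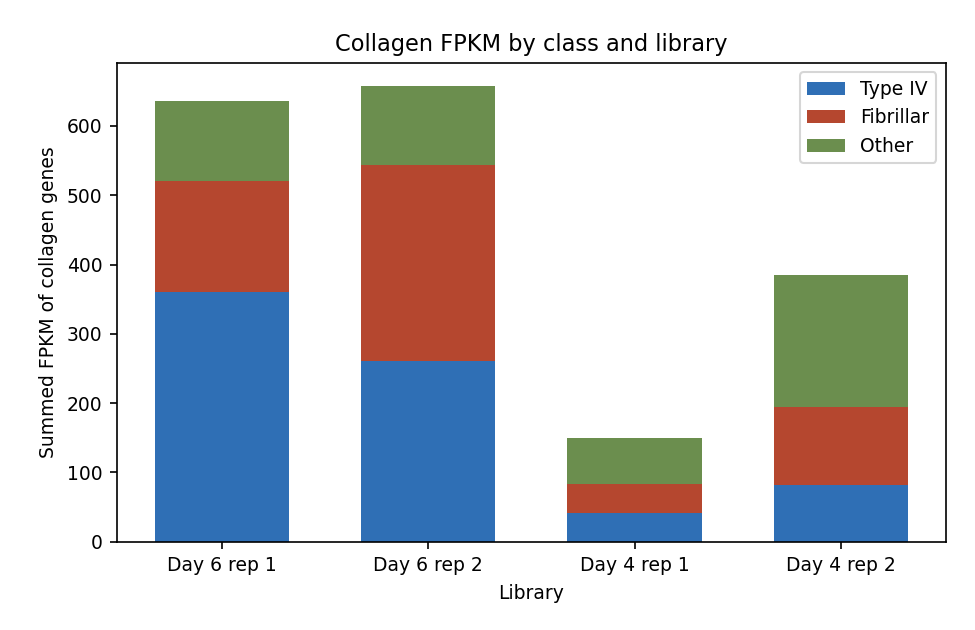
Summed FPKM of the collagen genes (vertical axis) in each of the 4 libraries (horizontal axis), with type IV, fibrillar and other collagens stacked from the bottom. The day 6 stacks reach 635 and 658 FPKM and the day 4 stacks 149 and 385 FPKM, and the type IV section is the tallest in day 6 replicate 1 while the section of the others is the tallest at day 4.

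The composition of the collagen RNA differed between the days as well as its amount. Type IV held 56.6 and 39.6% of the collagen FPKM at day 6, against 27.5 and 21.3% at day 4. The others held 18.0 and 17.4% at day 6, against 43.6 and 49.6% at day 4, and neither of these 2 classes overlapped between the days. Fibrillar chains held 25.4 and 43.0% at day 6, against 28.9 and 29.1% at day 4, so their share overlapped. Within the fibrillar class the makeup differed: the 3 chains of types I and III, Col1a1, Col1a2 and Col3a1, held 18.3 and 35.1% of all collagen FPKM at day 6, against 5.27 and 1.82% at day 4. The most abundant collagen was Col4a1 in both day 6 libraries and Col18a1 in both day 4 libraries.

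Of the 44 collagens, 21 had a mean of at least 1 FPKM over the 4 libraries and entered the test, a limma fit on log2(FPKM + 1) over 11706 genes with Benjamini-Hochberg adjustment. None passed an adjusted p of 0.05, and neither did any of the 11706 genes (0%), whose smallest adjusted p was 0.266. At an unadjusted p under 0.05 there were 12 of the 21 collagens and 15.3% of all genes tested. Both day 6 values lay above both day 4 values for 12 of the 21, against 41.6% of all genes tested. Both day 6 values lay below both day 4 values for 6 of the 21, against 11.5% of all genes. With only 2 libraries a day, an exact two-sided permutation test of 1 gene cannot give less than 0.333. Because no gene passed, the differences below are given as values with their errors and as whether the days overlap.

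Leaving out a day 4 library moved this count: 18 collagens passed without replicate 1 and 14 without replicate 2, but so did 66.9% and 51.9% of all genes. In those fits the spread comes from the day 6 pair alone.

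The median log2 difference, day 6 minus day 4, was 0.51 over all genes tested, so a collagen near 0.51 did what the typical gene did in these tables. Over the 21 collagens it was 0.71. By class it was 0.95 over 8 fibrillar collagens, 2.02 over 4 of type IV and -0.52 over 9 others. When each library was scaled to its median expressed gene, 9 of the 21 collagens were higher without overlap and 7 lower, against 24.4% and 21.7% of all genes. After quantile normalization these were 8 and 7 of the 21, against 23% and 25% of all genes. With the correction for G and C they were 9 and 6 of the 21, against 28% and 26.8% of all genes. Over all 44 collagens, whatever their level, 18 were higher without overlap and 9 lower, against 38.1% and 9.46% of all genes listed above 0 in a library.

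**Figure D2:**
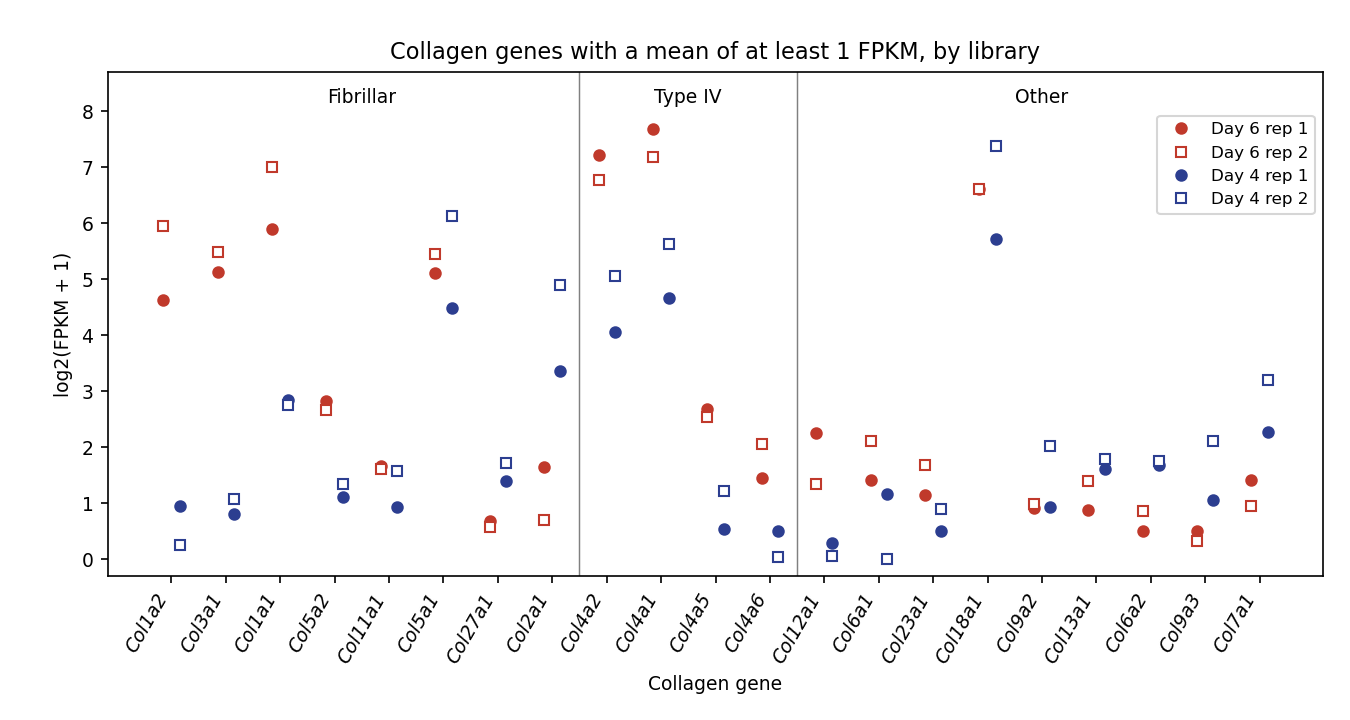
Level on the log2(FPKM + 1) scale (vertical axis) of the 21 collagens with a mean of at least 1 FPKM (horizontal axis, by class and ordered by their difference), with 1 point per library. The red day 6 points of Col1a2, Col3a1, Col1a1 and the 4 type IV chains lie above both blue day 4 points, those of Col2a1 and Col7a1 lie below, and for Col5a1 and Col18a1 the 2 day 4 points lie on either side of the day 6 points.

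Among the fibrillar collagens, the chains of types I and III had the widest gaps between the days. Col1a1, the major chain of type I collagen, had 58.4 and 127 FPKM at day 6, against 6.16 and 5.71 FPKM at day 4. It averaged 92.6 ± 48.4 FPKM in the day 6 libraries and 5.93 ± 0.319 FPKM in the day 4 libraries (SD, n = 2 each), 15.6-fold higher at day 6. Both day 6 libraries were well above day 4, and they differed from each other by more than the day 4 pair did. On the log2 scale the difference was 3.65 with an SE of 0.56 (limma, unadjusted p = 0.00207, adjusted p = 0.266).

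Col1a2, the partner chain in the type I heterotrimer, had 23.7 and 60.6 FPKM at day 6, against 0.941 and 0.198 FPKM at day 4. These stand for about 1175 and 2628 fragments at day 6 and about 24 and 5 fragments at day 4. As with Col1a1, day 6 replicate 2 was the highest library. The log2 difference was 4.68 with an SE of 0.65 (limma, unadjusted p = 0.00135, adjusted p = 0.266), which is the highest of the 21 collagens tested. The ratio of Col1a1 to Col1a2, per length, was 2.46 and 2.09 at day 6, against 6.54 and 28.8 at day 4, where Col1a2 has few fragments. The type I protein itself holds 2 Col1a1 chains for 1 Col1a2 chain.

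Col3a1, the chain of type III collagen found beside type I in distensible tissues, had 34.1 and 43.6 FPKM at day 6, against 0.760 and 1.10 FPKM at day 4. The libraries of each day lay close together for this gene. Its mean was 41.8-fold higher at day 6, a log2 difference of 4.36 with an SE of 0.43 (limma, unadjusted p = 0.000339, adjusted p = 0.266). With each library corrected for transcript G and C content, the log2 differences were 3.41 for Col1a1, 4.22 for Col1a2 and 3.74 for Col3a1.

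The upstream sequences of Col1a2 and Col3a1 are shown because these genes had the highest log2 differences of the class and very different base composition at their starts. Each run is the 250 bases before the start in RefSeq on GRCm38.p6, 5′ to 3′ on the strand of the gene. Capitals mark CCAAT (the CCAAT box), GGGCGG (the GC box) or TATAAA (the TATA box) on either strand, which do not overlap in these windows. Col1a2 is at chr6:4505368-4505617 on the plus strand, with its RefSeq start 79 bases from the start in the deposited table, and Col3a1 at chr1:45311288-45311537 on the plus strand.
Col1a2: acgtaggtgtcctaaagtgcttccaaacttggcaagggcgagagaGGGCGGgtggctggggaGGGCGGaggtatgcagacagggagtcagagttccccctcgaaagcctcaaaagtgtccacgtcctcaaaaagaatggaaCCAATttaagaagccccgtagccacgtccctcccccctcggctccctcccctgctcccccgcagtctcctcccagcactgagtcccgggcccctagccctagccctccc
Col3a1: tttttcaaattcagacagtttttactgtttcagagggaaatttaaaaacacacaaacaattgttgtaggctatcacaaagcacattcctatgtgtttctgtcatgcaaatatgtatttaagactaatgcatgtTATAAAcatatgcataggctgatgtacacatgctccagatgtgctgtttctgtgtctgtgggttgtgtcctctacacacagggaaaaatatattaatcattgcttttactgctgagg

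The Col1a2 window held 1 CCAAT and 2 GGGCGG and was 62% G and C. The Col3a1 window held 1 TATAAA and neither of the others and was 35.2% G and C. Of 32851 mouse promoter windows of this length, 33.8% held CCAAT, 32.7% held GGGCGG and 12.4% held TATAAA on either strand. Among 38 windows of 35 collagen genes with an entry, 13 held CCAAT, 22 held GGGCGG and 5 held TATAAA. These matches describe letters in a window and are not mapped binding sites.

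Types V and XI, minor fibrillar collagens that start fibrils and set their diameter, gave a separate picture for each chain. Col5a2 had 6.05 and 5.34 FPKM at day 6, against 1.15 and 1.53 FPKM at day 4, a log2 difference of 1.52 with an SE of 0.39 (limma, adjusted p = 0.268). Col5a1, the partner of Col5a2 in type V, had 33.4 and 42.8 FPKM at day 6, against 21.4 and 69.1 FPKM at day 4. The day 4 libraries of Col5a1 lay on both sides of day 6, and the log2 difference was -0.03 with an SE of 0.71 (limma, adjusted p = 0.988). Without day 4 replicate 1 it was -0.85, and without day 4 replicate 2 it was 0.80. Col5a1 was the more abundant chain of type V in every library, by a ratio of 5.53 and 8.01 at day 6, against 18.6 and 45.2 at day 4. Col11a1, the type XI chain of cartilage fibrils, had 2.16 and 2.04 FPKM at day 6, against 0.907 and 1.97 FPKM at day 4. Its days did not overlap as deposited, but the log2 difference of 0.38 with an SE of 0.42 became -0.30 after correction for G and C and -0.33 after quantile normalization.

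Col2a1 and Col27a1, fibrillar collagens known best from cartilage, were lower at day 6. Col2a1, which is also made by the notochord and other embryonic tissues, had 2.13 and 0.624 FPKM at day 6, against 9.23 and 28.9 FPKM at day 4. These are about 102 and 27 fragments at day 6 and about 234 and 728 fragments at day 4. Its log2 difference was -2.96 with an SE of 0.73 (limma, unadjusted p = 0.0131, adjusted p = 0.266), the lowest of the 21, and it was -2.99 after correction for G and C. Col27a1 had 0.606 and 0.492 FPKM at day 6, against 1.65 and 2.27 FPKM at day 4, a log2 difference of -0.93 with an SE of 0.36 (limma, adjusted p = 0.338). For both genes the days did not overlap. The chondrocyte markers, a list of 8 genes with Sox9, Acan and Matn1, summed to 6.29 and 6.85 FPKM at day 6, against 3.63 and 7.18 FPKM at day 4. Only 2 of these 8 were high enough to test. Sox6 was higher without overlap, as were 41.6% of all genes, and Sox9 overlapped. Sox9 was lower without overlap with median scaling, quantile normalization and the correction for G and C. Over all 8, whatever their level, 4 were higher without overlap and 2 lower, the latter being Acan and Matn3. These compare with 38.1% and 9.46% of all genes listed above 0 in a library.

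Col2a1 also has 2 transcript rows that differ by 1 exon. NM_031163 includes exon 2, of 204 bases at chr15:98000403-98000606, which codes for a cysteine-rich domain of the propeptide and is kept in the embryonic form known as IIA. NM_001113515 lacks that exon, as does the form of mature cartilage known as IIB. The row with exon 2 had 0.502 and 0.624 FPKM at day 6, against 8.51 and 28.8 FPKM at day 4. The row without it had 1.63 and 0.0000405 FPKM at day 6, against 0.719 and 0.124 FPKM at day 4. The exon 2 form thus held 92.2 and 99.6% of Col2a1 FPKM at day 4, while at day 6 it held 23.6% in replicate 1 and nearly all in replicate 2. The makeup at day 6 thus differed between the replicates, where the gene has about 102 and 27 fragments. The deposited bounds of the row without exon 2 were 1.20 to 2.05 FPKM in day 6 replicate 1 and 0 to 0.0482 FPKM in replicate 2. The split between rows is set by a quantifier that the sources used here do not name, and the cause of the difference was not tested.

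The other 3 fibrillar collagens were too low to test. Col11a2, a partner of Col11a1, had 0.462 and 0.507 FPKM at day 6, against 0.503 and 1.02 FPKM at day 4. Col5a3, a further type V chain, stayed between 0.0667 and 0.330 FPKM, and Col24a1 between 0 and 0.0841 FPKM. Each of these 3 overlapped between the days.

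Cells with a mesenchymal programme were looked for beside the fibrillar collagens, since they make most type I and III collagen in the body. The mesenchyme and fibroblast markers, 8 genes with Pdgfra, Twist1 and Prrx1, summed to 76.6 and 105 FPKM at day 6, against 17.3 and 30.2 FPKM at day 4. Of the 7 tested, 4 were higher without overlap and none lower, against 41.6% and 11.5% of all genes, with a median log2 difference of 2.43. The 4 were Pdgfra, Pdgfrb, Twist2 and Postn, while Twist1, Thy1 and S100a4 overlapped and Prrx1 was too low to test. Postn had 20.5 and 37.6 FPKM at day 6 and was listed at 0 in both day 4 libraries. The osteoblast markers Runx2, Sp7, Bglap and Ibsp summed to 0.328 and 0.129 FPKM at day 6, against 0.422 and 0.373 FPKM at day 4, with Ibsp listed at 0 in all 4 libraries. The smooth muscle markers, 4 genes with Acta2 and Tagln, summed to 626 and 302 FPKM at day 6, against 398 and 1000.2 FPKM at day 4, a sum that hides members going opposite ways. Acta2 had 249.6 and 222 FPKM at day 6, against 13.4 and 0.410 FPKM at day 4. Cnn1 and Myh11 were lower at day 6 without overlap, and Tagln overlapped. The neural markers Sox1, Pax6, Tubb3 and Map2 summed to 17.96 and 7.63 FPKM at day 6, against 9.58 and 8.85 FPKM at day 4. The part of such cells in the collagen values was not tested.

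The type IV collagens were the class in which every tested member was higher at day 6 without overlap, against 41.6% of all genes tested. This held for all 4 with each library scaled to its median gene, with quantile normalization and with the correction for G and C. In those settings 24.4%, 23% and 28% of all genes were higher without overlap, in that order. Col4a1, which with Col4a2 makes the ubiquitous network of basement membranes, had 205 and 144 FPKM at day 6, against 24.3 and 48.3 FPKM at day 4. It averaged 174 ± 42.9 FPKM in the day 6 libraries and 36.3 ± 16.9 FPKM in the day 4 libraries (SD, n = 2 each), a ratio of 4.8. Day 6 replicate 1 and day 4 replicate 2 were the higher libraries of their days. The log2 difference was 2.29 with an SE of 0.57 (limma, unadjusted p = 0.0131, adjusted p = 0.266).

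Col4a2 had 148 and 109 FPKM at day 6, against 15.7 and 32.2 FPKM at day 4. The log2 difference was 2.44 with an SE of 0.56 (limma, unadjusted p = 0.0101, adjusted p = 0.266), 5.35-fold between the means. Col4a1 and Col4a2 kept nearly the same order and spacing in each library, at a ratio of Col4a1 to Col4a2 of 1.38 and 1.33 at day 6, against 1.55 and 1.502 at day 4. Together they held 55.5 and 38.4% of all collagen FPKM at day 6, against 26.9 and 20.9% at day 4.

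Col4a1 and Col4a2 start back to back, a known arrangement of this gene pair, and the 30 bases around their starts are shown for it. On mm10 chromosome 8 the deposited table places Col4a1, on the minus strand, at 11198423 to 11312826, and Col4a2, on the plus strand, at 11312829 to 11449287, with 2 bases between them. RefSeq on GRCm38.p6 has another Col4a2 start, at 11312805, which is 24 bases to the left and would make the genes overlap. The run is chr8:11312813-11312842 on the plus strand, and the capitals mark, by the deposited table, the first base of Col4a1, read to the left, and the first base of Col4a2, read to the right.
Col4a1 and Col4a2 starts: ggcggcgtctccaAggGgaggaccctgcgg

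The other type IV genes are paired in the same way, as is known for this family. Col4a6 and Col4a5 lie 1342 bases apart on chromosome X, and Col4a4 and Col4a3 lie 71 bases apart on chromosome 1. Col4a5 had 5.46 and 4.83 FPKM at day 6, against 0.444 and 1.32 FPKM at day 4, a log2 difference of 1.75 with an SE of 0.44 (limma, adjusted p = 0.266). Col4a6, which joins Col4a5 in basement membranes of smooth muscle and some epithelia, had 1.72 and 3.17 FPKM at day 6, against 0.422 and 0.0305 FPKM at day 4. Its log2 difference was 1.48 with an SE of 0.43 (limma, adjusted p = 0.287). Both members of the X-linked pair were thus higher at day 6 without overlap, at levels far below those of Col4a1 and Col4a2. Col4a3 and Col4a4, the chains that join Col4a5 in the glomerular basement membrane of the kidney, reached at most 0.0357 and 0.0517 FPKM in any library and rest on 1 to 3 fragments where they are above 0. Neither was tested, and at these levels Col4a4 was lower at day 6 without overlap while Col4a3 overlapped.

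Col4a5 has 2 transcript rows with the same ends and lengths of 6491 and 6319 bases, and the row that held the FPKM differed between the days. The longer one, NM_001163155, had 3.47 and 4.83 FPKM at day 6, against 0.000408 and 0.000398 FPKM at day 4. The shorter one, NM_007736, had 1.99 and 0.00161 FPKM at day 6, against 0.444 and 1.32 FPKM at day 4. The deposited upper bound of the longer row was 0.0618 and 0.0624 FPKM at day 4, below the deposited lower bounds of 2.89 and 4.21 FPKM at day 6. These bounds cover the authors' estimate within a library and not the spread between libraries. The gene has about 14 and 41 fragments at day 4, and how its fragments were split between rows is set by a quantifier that the sources used here do not name.

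**Figure D3:**
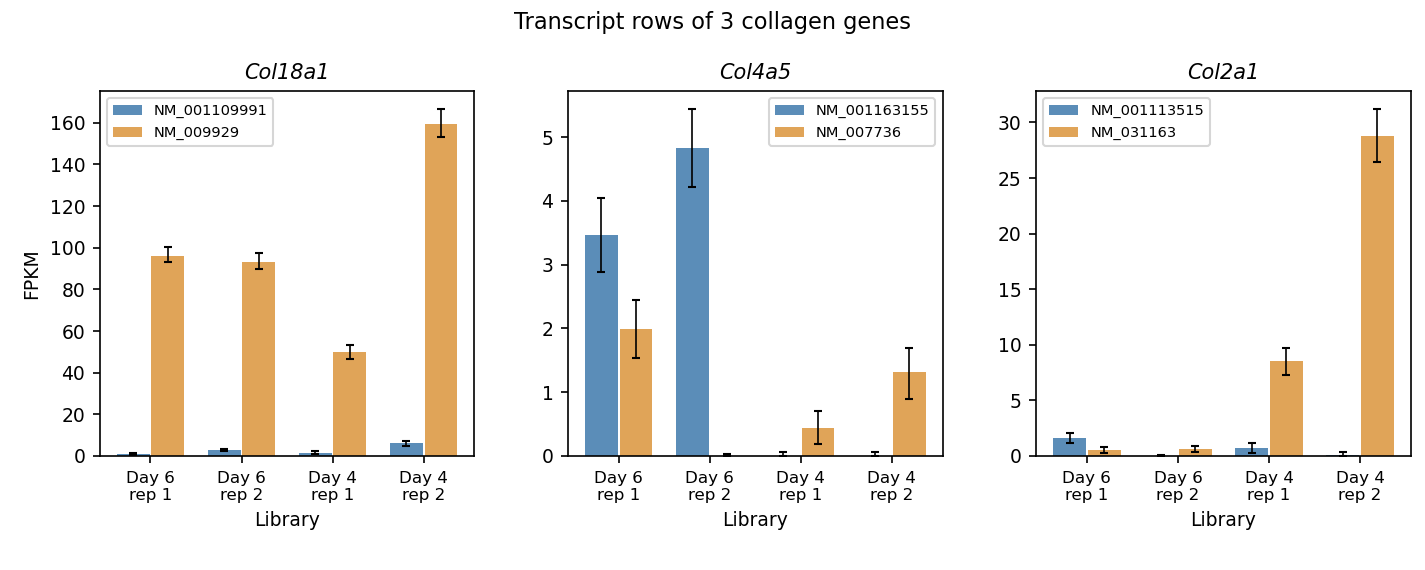
FPKM (vertical axis, a scale for each panel) of the 2 transcript rows of Col18a1, Col4a5 and Col2a1 in each library (horizontal axis), with the deposited lower and upper bound as error bars. For Col18a1 the row NM_009929 is the taller one in all 4 libraries, for Col4a5 the taller row is NM_001163155 at day 6 and NM_007736 at day 4, and for Col2a1 the exon 2 row NM_031163 reaches 8.51 and 28.8 FPKM at day 4 against 0.502 and 0.624 FPKM at day 6.

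Genes whose proteins lie beside type IV collagen in basement membranes were described with it. Of 7 such partners tested, 4 were higher at day 6 without overlap and none lower, against 41.6% and 11.5% of all genes, with a median log2 difference of 1.57. Hspg2, Agrn and Nid2, which code for perlecan, agrin and a further nidogen, overlapped. Nid2 had 42.4 and 51.9 FPKM at day 6, against 43.2 and 102 FPKM at day 4, and was lower without overlap with median scaling and with the correction for G and C. The chains of laminin 111, the laminin of the early embryo, were among the 4. Lama1 had 6.99 and 10.1 FPKM at day 6, against 0.752 and 0.127 FPKM at day 4. Lamb1 had 97.3 and 99.4 FPKM at day 6, against 31.2 and 28.0 FPKM at day 4. Lamc1 had 125 and 148 FPKM at day 6, against 43.1 and 47.1 FPKM at day 4. All 3 laminin chains were thus higher without overlap. Nid1, which codes for nidogen, a link between laminin and type IV collagen, had 34.6 and 39.9 FPKM at day 6, against 7.37 and 3.83 FPKM at day 4. Their log2 differences were 2.74, 1.70, 1.57 and 2.59 in that order, each with a limma adjusted p of 0.266 or 0.287.

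The primitive and parietal endoderm, which lays down a thick basement membrane in the mouse, was checked by 9 markers with Gata6, Gata4, Sox17 and Dab2. They summed to 85.1 and 121 FPKM at day 6, against 39.7 and 64.4 FPKM at day 4. Of the 8 tested, 6 were higher without overlap and none lower, against 41.6% and 11.5% of all genes, with a median log2 difference of 1.57. Sox7 and Snai1 overlapped, with log2 differences of 0.49 and -0.31, and Thbd was too low to test. With median scaling 5 were higher and none lower, against 24.4% and 21.7% of all genes. With the correction for G and C 6 were higher and none lower, against 28% and 26.8%. The endothelial markers Kdr, Pecam1, Cdh5, Tek and Tie1 summed to 11.1 and 29.9 FPKM at day 6, against 4.72 and 0.934 FPKM at day 4. All 5 were higher without overlap as deposited, against 41.6% of all genes. After correction for G and C 3 of the 5 were, against 28% of all genes. The part of either cell type in the type IV values was not tested.

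Among the other collagens, Col18a1 stood far above the rest and overlapped between the days. Col18a1, whose C-terminal fragment is endostatin, had 97.3 and 96.2 FPKM at day 6, against 51.3 and 165 FPKM at day 4. The day 6 libraries agree closely and lie between the day 4 libraries. The log2 difference was 0.07 with an SE of 0.71 (limma, adjusted p = 0.969), and it was -0.48 with median scaling and -0.10 with the correction for G and C. It was -0.77 without day 4 replicate 1 and 0.90 without day 4 replicate 2. Its share of collagen FPKM was 15.3 and 14.6% at day 6, against 34.4 and 43.0% at day 4, without overlap.

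Col18a1 has 2 starts, and nearly all of its FPKM lay on 1 of them. The row from the upstream start, NM_009929 at chr10:77052179-77166530 on the minus strand, had 96.2 and 93.3 FPKM at day 6, against 49.8 and 159 FPKM at day 4. The row from the internal start, NM_001109991, starts at 77113705 and had 1.11 and 2.91 FPKM at day 6, against 1.56 and 6.05 FPKM at day 4. The upstream row held 96.3 to 98.9% of the gene's FPKM over the 4 libraries, with 98.9 and 96.98% at day 6, against 96.96 and 96.3% at day 4. These shares do not overlap, but the lower day 6 share and the higher day 4 share lie almost together. The 250 bases before each start, from RefSeq on GRCm38.p6 and read 5′ to 3′ on the minus strand, are shown because use of the starts was so uneven. They are chr10:77166531-77166780 for the upstream start and chr10:77113706-77113955 for the internal one, with capitals marking the same motifs as above, here in their reverse forms ATTGG and CCGCCC.
Col18a1 upstream: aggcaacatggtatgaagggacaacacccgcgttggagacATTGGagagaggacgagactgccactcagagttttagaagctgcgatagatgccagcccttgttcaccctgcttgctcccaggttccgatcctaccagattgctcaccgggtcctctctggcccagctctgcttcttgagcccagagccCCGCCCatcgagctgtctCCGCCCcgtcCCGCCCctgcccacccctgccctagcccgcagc
Col18a1 internal: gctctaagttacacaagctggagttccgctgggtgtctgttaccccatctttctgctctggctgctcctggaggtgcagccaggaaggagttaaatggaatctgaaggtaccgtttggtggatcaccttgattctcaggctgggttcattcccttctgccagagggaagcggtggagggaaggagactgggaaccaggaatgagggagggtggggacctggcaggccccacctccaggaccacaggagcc

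The upstream window held 1 CCAAT and 3 GGGCGG and the internal window none of the 3 motifs. Of all promoter windows, 33.8% held the first motif and 32.7% the second, as given above. Col15a1, the only relative of Col18a1 in its class, reached at most 0.307 FPKM in any library.

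Col12a1, Col6a1 and Col23a1 were the members of the other classes, 3 of 9 tested, that were higher at day 6 without overlap. This is no more than the 41.6% of all genes tested that were higher. Col12a1, a fibril-associated collagen of tendon and ligament, had 3.75 and 1.54 FPKM at day 6, against 0.221 and 0.0344 FPKM at day 4, a log2 difference of 1.63 with an SE of 0.46 (limma, adjusted p = 0.287). Its row was named by its position in the genome alone. Col6a1, a chain of the beaded filaments of type VI, had 1.66 and 3.31 FPKM at day 6, against 1.23 and 0 FPKM at day 4, a log2 difference of 1.18 with an SE of 0.57 (limma, adjusted p = 0.400). Col23a1, a transmembrane collagen, had 1.22 and 2.19 FPKM at day 6, against 0.426 and 0.862 FPKM at day 4. Its log2 difference of 0.71 had an SE of 0.41 (limma, adjusted p = 0.449) and became -0.13 with quantile normalization. All 3 were low in every library. With median scaling and with the correction for G and C only Col12a1 of the 3 stayed clear of overlap, and with quantile normalization none did. Col12a1 had no G and C value, so that correction shifted it by the median amount of each library. It could not test the effect of the gene's own G and C content.

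The type VI chains Col6a1 and Col6a2, which assemble together in the protein, lay on opposite sides of their day 4 levels as deposited. Col6a1 overlapped between the days with median scaling, quantile normalization and the correction for G and C. Col6a2 was lower at day 6, with 0.423 and 0.805 FPKM, against 2.19 and 2.38 FPKM at day 4, a log2 difference of -1.04 with an SE of 0.37 (limma, adjusted p = 0.317). The ratio of Col6a1 to Col6a2 was 3.93 and 4.12 at day 6, against 0.561 and 0 at day 4. The ratio of 0 comes from Col6a1 listed at 0 in day 4 replicate 2, where 3 fragments would stand for 0.1555 FPKM. Col6a3, the largest chain of the main form, was below the level for the test, with 0.920 and 0.571 FPKM at day 6, against 0.0883 and 0 FPKM at day 4. Col6a4, Col6a5 and Col6a6 stayed at or under 0.134 FPKM.

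Several collagens of cartilage, skin and cell membranes were lower at day 6. Col7a1, the anchoring fibril collagen of the skin, had 1.67 and 0.929 FPKM at day 6, against 3.81 and 8.20 FPKM at day 4, a log2 difference of -1.55 with an SE of 0.52 (limma, adjusted p = 0.302). Col9a3, a fibril-associated collagen of cartilage, had 0.412 and 0.257 FPKM at day 6, against 1.09 and 3.31 FPKM at day 4, a log2 difference of -1.17 with an SE of 0.49 (limma, adjusted p = 0.359). Col13a1, a transmembrane collagen of the neuromuscular junction, had 0.844 and 1.64 FPKM at day 6, against 2.07 and 2.45 FPKM at day 4, a log2 difference of -0.56 with an SE of 0.40 (limma, adjusted p = 0.522). These 3 and Col6a2 are the 4 of 9 tested members of the other classes that were lower without overlap, against 11.5% of all genes. The untested Col25a1 and Col6a5 were lower without overlap as well, at no more than 0.546 and 0.0865 FPKM in any library. Col9a2, which joins Col9a3 in type IX, had 0.894 and 0.978 FPKM at day 6, against 0.906 and 3.06 FPKM at day 4, and so overlapped, with a log2 difference of -0.52 and an SE of 0.51 (limma, adjusted p = 0.637). With the correction for G and C, Col13a1 overlapped and Col9a2 was lower without overlap. The surface ectoderm markers Krt5, Krt14 and Trp63 were given beside Col7a1 and summed to 1.94 and 0.923 FPKM at day 6, against 2.08 and 3.17 FPKM at day 4, with Krt5 listed at 0 in all 4 libraries. Of these 3 markers only Krt14 was tested, and it was lower without overlap, as were 11.5% of all genes tested. Trp63, too low to test, went the other way, with 0.200 and 0.234 FPKM at day 6, against 0 in both day 4 libraries. The part of such cells in the Col7a1 values was not tested.

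Of the 44 collagens, 23 had a mean under 1 FPKM and were not tested, and 19 of these stayed under 1 FPKM in all 4 libraries. The other 4 reached 1 FPKM in a library. Col26a1 had 1.11 and 1.22 FPKM at day 6, against 0 and 0.777 FPKM at day 4. Col8a2, a short-chain collagen of Descemet's membrane in the eye, had 0.410 and 1.96 FPKM at day 6, against 0.375 and 0.521 FPKM at day 4. Col16a1 had 0.778 and 0.547 FPKM at day 6, against 0.0387 and 1.61 FPKM at day 4, and Col11a2 is given above. Only Col26a1 of these 4 was higher at day 6 without overlap. Col8a1, the partner of Col8a2 in type VIII, had 0.813 and 0.0697 FPKM at day 6 and was listed at 0 in the day 4 libraries. Col20a1, Col22a1, Col9a1, Col14a1, Col25a1, Col17a1, Col19a1 and Col10a1 stayed at or under 0.974 FPKM in every library. Col28a1 was listed at 0 in all 4, and 12 of the 23 had fewer than 10 fragments in every library.

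**Figure D4:**
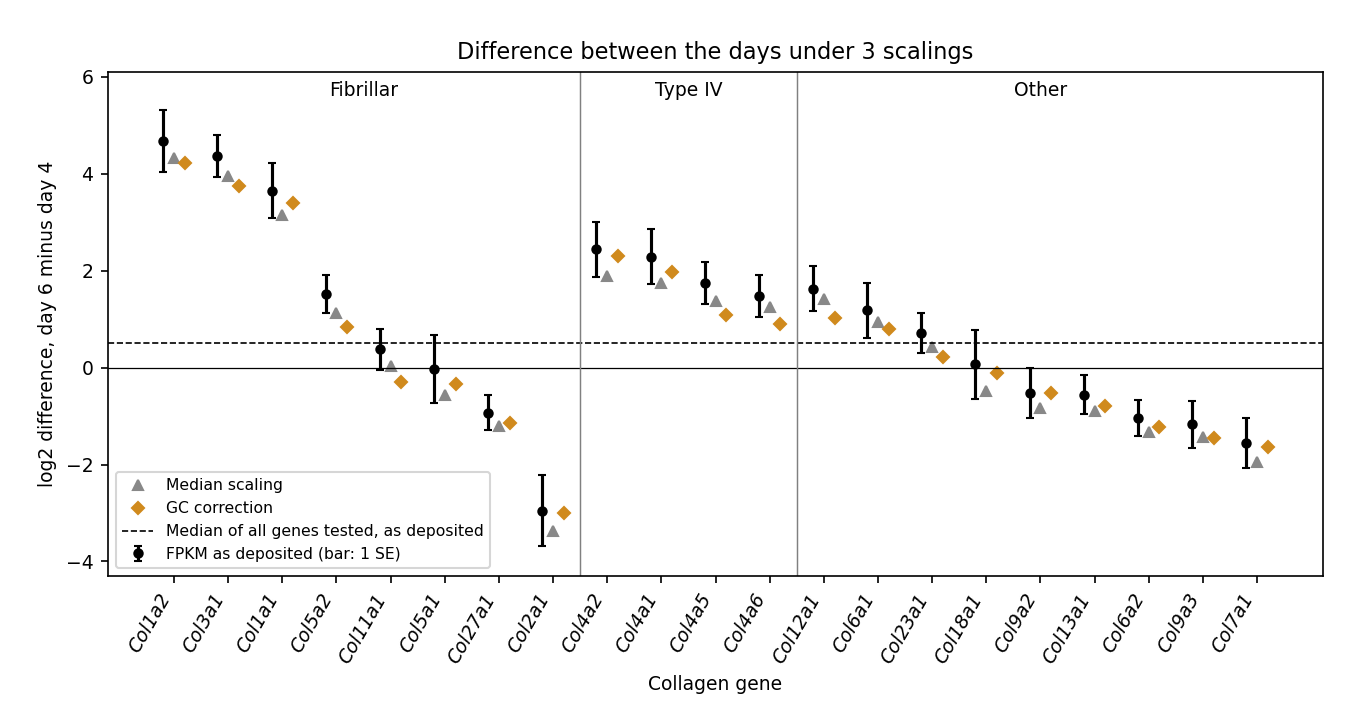
Difference on the log2(FPKM + 1) scale, day 6 minus day 4 (vertical axis), of the 21 tested collagens (horizontal axis, by class), as deposited with a bar of 1 SE, with median scaling and with correction for G and C content. The dashed line is the median of all genes as deposited, 0.51, and Col1a2, Col3a1, Col1a1 and the 4 type IV chains lie above it under all 3 scalings, while Col11a1 and Col18a1 cross 0.

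The machinery that modifies and folds collagen chains was described from lists that hold no collagen. For proline and lysine hydroxylation, 15 genes had a row and 12 were tested, of which 10 were higher at day 6 without overlap and none lower, against 41.6% and 11.5% of all genes, with a median log2 difference of 1.59 against 0.51 for all genes. None passed the test. With median scaling 7 were higher and none lower, against 24.4% and 21.7% of all genes. With the correction for G and C 10 were higher and 1 lower, against 28% and 26.8%. P4ha2, a catalytic subunit of the prolyl 4-hydroxylase that stabilises the helix, had 11.1 and 16.1 FPKM at day 6, against 1.38 and 0.841 FPKM at day 4, a log2 difference of 2.78 with an SE of 0.45 (limma, adjusted p = 0.266). P4ha1, the other main catalytic subunit, had 17.2 and 27.4 FPKM at day 6, against 5.18 and 0.560 FPKM at day 4. The prolyl 3-hydroxylase P3h1 and its partner Crtap act in 1 complex. P3h1 had 16.2 and 14.2 FPKM at day 6, against 2.60 and 6.17 FPKM at day 4. Crtap had 38.3 and 35.6 FPKM at day 6, against 8.04 and 7.90 FPKM at day 4. All 4 of these hydroxylation genes were thus higher at day 6 without overlap.

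Folding and secretion counted 14 genes, all tested, of which 11 were higher without overlap and none lower, against 41.6% and 11.5% of all genes, with a median log2 difference of 1.20. With median scaling 7 were higher and none lower, against 24.4% and 21.7% of all genes. With the correction for G and C 8 were higher and 2 lower, against 28% and 26.8%. Creb3l2, a transcription factor of the secretory pathway that controls Sec23a in mouse cartilage, had 11.5 and 13.6 FPKM at day 6, against 1.24 and 0 FPKM at day 4. Sec23a, a coat protein of the vesicles that leave the endoplasmic reticulum, had 18.3 and 19.3 FPKM at day 6, against 5.74 and 0.300 FPKM at day 4. Both were higher at day 6 without overlap, with log2 differences of 3.18 and 2.74 and limma adjusted p-values of 0.266 and 0.300. Fkbp10, a chaperone and prolyl isomerase of type I collagen, had 50.0 and 41.7 FPKM at day 6, against 14.8 and 20.005 FPKM at day 4. Fkbp14, a related isomerase, had 1.497 and 2.17 FPKM at day 6, against 0.393 and 0 FPKM at day 4. Serpinh1, the collagen-specific chaperone HSP47, was picked after its values were seen and had 244 and 268 FPKM at day 6, against 44.0 and 167 FPKM at day 4.

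The enzymes that act on collagen outside the cell were more mixed. For propeptide removal, 4 of 8 genes were tested, with 2 higher without overlap and 1 lower, near the 41.6% and 11.5% of all genes, and a median log2 difference of 0.79. With median scaling 1 was higher and 1 lower, against 24.4% and 21.7% of all genes, and Bmp1 overlapped. Adamts2, which removes the N-propeptide, had 5.09 and 8.41 FPKM at day 6, against 0.174 and 0.643 FPKM at day 4. Bmp1, which removes the C-propeptide, had 71.2 and 43.6 FPKM at day 6, against 9.12 and 40.1 FPKM at day 4. Pcolce and Pcolce2 both code for enhancers of Bmp1. Pcolce overlapped, with 46.4 and 35.99 FPKM at day 6, against 18.2 and 77.6 FPKM at day 4. Pcolce2 was lower, with 2.47 and 1.01 FPKM at day 6, against 8.46 and 5.22 FPKM at day 4.

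For cross-linking, 6 of 7 genes were tested, with 3 higher without overlap and 1 lower, near the 41.6% and 11.5% of all genes, and a median log2 difference of 0.90. Loxl2, a lysyl oxidase, had 13.99 and 24.5 FPKM at day 6, against 3.43 and 1.69 FPKM at day 4. Pxdn, the peroxidase that forms the sulfilimine bonds of type IV collagen, had 36.7 and 43.2 FPKM at day 6, against 9.995 and 14.1 FPKM at day 4. Loxl3 had 3.78 and 3.72 FPKM at day 6, against 2.36 and 0.712 FPKM at day 4. These 3 were the ones higher at day 6. Loxl4, a further lysyl oxidase, was lower, with 2.63 and 2.53 FPKM at day 6, against 5.19 and 10.9 FPKM at day 4.

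Receptors for collagen and the small proteoglycans that coat fibrils were tested in few cases. Of 10 receptor genes 3 were tested, with 1 higher without overlap and none lower, which is no more than the 41.6% of all genes that were higher, and a median log2 difference of 0.84. Mrc2, an endocytic receptor that takes up collagen, had 6.12 and 8.99 FPKM at day 6, against 0.866 and 1.19 FPKM at day 4, and was the one that did not overlap. Itgb1, the shared beta chain of the collagen-binding integrins, had 111 and 115 FPKM at day 6, against 150 and 25.6 FPKM at day 4. Ddr1, a receptor kinase for collagen, had 106 and 75.7 FPKM at day 6, against 40.3 and 275 FPKM at day 4. For both the day 6 values lay between those of day 4. Of 9 proteoglycan genes only Bgn and Podn were tested, and both overlapped, with a median log2 difference of 0.05. Bgn, which codes for biglycan, had 2.93 and 2.47 FPKM at day 6, against 13.1 and 0.0888 FPKM at day 4. Podn had 3.48 and 1.58 FPKM at day 6, against 1.38 and 2.83 FPKM at day 4. Aspn, Kera and Ogn, genes of fibril coats in mature connective tissue, were listed at 0 in all 4 libraries.

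**Figure D5:**
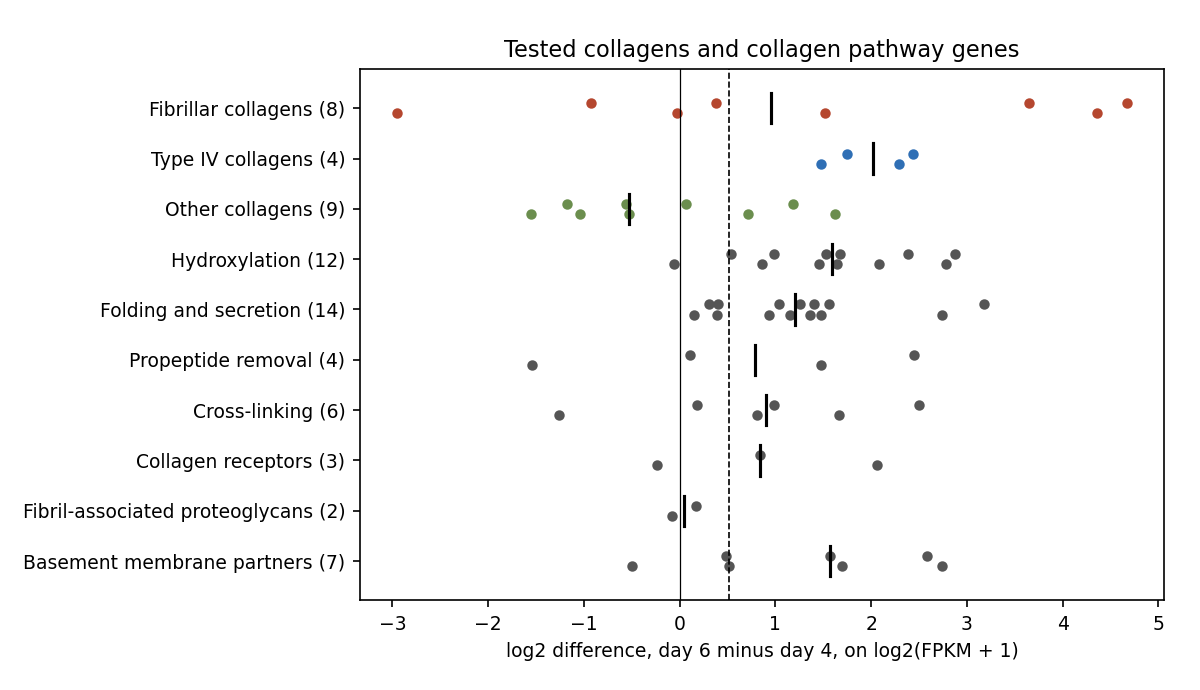
Difference on the log2(FPKM + 1) scale, day 6 minus day 4 (horizontal axis), of every tested gene in 3 collagen classes and 7 lists of collagen pathway genes (vertical axis, number tested in brackets), with 1 point per gene and a black bar at the median of each list. The dashed line is the median of all genes tested, 0.51, and the medians of the hydroxylation list (1.59), type IV collagens (2.02) and basement membrane partners (1.57) lie furthest to the right.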

How the data were processed

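The authors deposited 1 table per library with FPKM and lower and upper FPKM bounds for 35656 transcripts. A coverage signal column, also deposited by the authors, was not used. Per the labels' protocols, poly(A) RNA from TRIzol extracts went into stranded TruSeq libraries. The submitters' processing notes name CASAVA, TopHat2 2.0.11 and the build mm10. The sources used here give neither the quantifier nor its annotation or use of strand.

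Rows were named from RefSeq (30290 rows), GENCODE links (160) and transcripts (3585), and, for 123 rows including Col12a1, by at least 90% reciprocal overlap with exactly 1 gene. FPKM was summed per symbol. Genes averaging 1 FPKM or more entered limma 3.58.1 (R 4.3.3, trend, two-sided, Benjamini-Hochberg, threshold 0.05) on log2(FPKM + 1), a scale that understates differences of low genes. Depth came from transcripts of at least 3000 bases, where 98.1 to 99.3% of values of up to 10 fragments were within 0.1 of a whole number. Correction for G and C used a loess curve per library with a span of 0.4.

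Collagens with a mean of at least 1 FPKM are named with all values, and of each pathway list the up to 4 genes with the smallest unadjusted p. The members and lists were chosen with earlier results of these data known. Alternatives were other pseudocounts, filters, scalings, a replicate block and leaving out each library.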

Additional observations from a re-analysis of the deposited data

How the results depend on the processing

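No collagen passed the limma test under the pseudocounts, filters, scalings, trend setting or correction for G and C that were tried. Replicate numbers share no known culture and did not pair the libraries (correlation over genes of replicate 2 minus 1 between the days -0.09). The replicate block gave 3 passing collagens (Col1a1, Col1a2 and Col3a1, adjusted p 0.0485, 0.00570 and 0.0101) and 0.786% of all genes, and none of the collagens together with the correction for G and C. Creb3l2 passed with the block as well (adjusted p 0.0485). Leaving out 1 library gave 0 to 18 passing collagens: 18 without day 4 replicate 1 and 14 without day 4 replicate 2, where 66.9% and 51.9% of all genes passed and the lone day 4 library is assumed to vary like the day 6 libraries, and 0 without either day 6 library. Over the same 4 fits, 12 to 14 of the 21 collagens were higher without overlap and 6 to 9 lower. Without day 4 replicate 1 the counts were 12 and 9, against 7614 and 3361 of the whole set of 11706 genes. Without day 4 replicate 2 they were 14 and 6, against 7015 and 3745. Without day 6 replicate 1 they were 12 and 6, against 5287 and 1752. Without day 6 replicate 2 they were 12 and 7, against 5527 and 1520. The medians ranged over 0.73 to 1.22 for fibrillar collagens, 1.76 to 2.43 for type IV and -0.77 to 0.022 for the others. Without a filter 18 collagens were higher and 9 lower, against 7050 and 1751 of 18519 genes. Raising the filter to 5 FPKM kept only Col1a1, Col1a2, Col2a1, Col3a1, Col5a1, Col18a1, Col4a1 and Col4a2. Of these collagens 5 were higher and 1 lower, against 3103 and 940 of the 7666 genes kept. The fibrillar median was 1.31 and 0.45 with pseudocounts of 0.1 and 5, 0.034 without a filter, 3.65 with a mean of at least 5 FPKM, 0.57 with median scaling, 0.30 with quantile normalization and 0.27 with the correction for G and C, also with the block. The type IV median was 2.53 and 1.48 with these pseudocounts, 1.56 with median scaling and 1.53 with the correction for G and C, also with the block. The median of the others was 0.022 without a filter, 0.067 with a mean of at least 5 FPKM and -1.18 with quantile normalization. The causes were not tested. These named genes turned direction: Bgn to 0.83 (pseudocount 0.1); Col18a1 to -0.48, Pcolce to -0.43 and Podn to -0.21 (median scaling); Col11a1 to -0.33, Col18a1 to -0.0094, Col23a1 to -0.13, Pcolce to -0.077 and Podn to -0.52 (quantile normalization); Podn to -0.052 (highest row per symbol); and Col11a1 to -0.30, Col18a1 to -0.10, Pcolce to -0.16 and Podn to -0.18 (correction for G and C, with or without the block). Leaving out each library in turn spread the log2 difference over -0.85 to 0.80 for Col5a1, -0.77 to 0.90 for Col18a1, -1.07 to 0.022 for Col9a2, -0.91 to 1.12 for Pcolce, -0.41 to 2.10 for Itgb1, -1.61 to 1.13 for Ddr1, -1.93 to 1.76 for Bgn and -0.22 to 0.57 for Podn. At this depth a gene near 1 FPKM has few fragments at day 4, so differences there are poorly measured.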
